A study of Mus musculus with 12 samples.

Results

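The genes described here are 10 regulators of the hepatic acute-phase response, taken by gene symbol from the 16821 genes listed in each liver: the receptors Il6ra, Il6st, Osmr, Il1r1 and Il1rap, the transcription factors Stat3, Cebpb and Cebpd, and the inhibitors Socs3 and Il1rn. Their levels were compared between groups and related, mouse by mouse, to Saa1, which encodes the acute-phase protein serum amyloid A1. The data were bulk RNA-seq of the liver from 12 adult male wild-type C57BL/6J mice, 8 weeks old at purchase, with 1 library per mouse and no pooling. The 6 mice of the Exe group had chronic exercise, treadmill running of moderate intensity over 6 weeks, on 5 days per week for 60 min per day. The 6 mice of the Con group were sedentary and kept in the same room. Livers were collected within a day of the last exercise. The mice were perfused with saline before the liver was taken, and the methods state that principal component analysis served to exclude outliers, so the 12 mice may be a selection.

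In the acute-phase response the liver changes its output of plasma proteins after infection, injury or other stress. IL-6 binds its receptor (Il6ra) and the shared signal transducer gp130 (Il6st), the JAK kinases then phosphorylate STAT3, and STAT3 switches on acute-phase genes together with its own inhibitor SOCS3. IL-1 acts through IL1R1 and its accessory protein IL1RAP, is blocked by the antagonist encoded by Il1rn, and works together with the C/EBP factors on genes such as Saa1.

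Promoter windows of 300 bases, reaching from 250 bases before to 50 bases after an annotated start, were read from RefSeq on build GRCm38.p6. A window was found for 9 of the 10 regulators, Cebpd being the exception, and some genes had several, which gave 12 windows. The windows were searched for a STAT palindrome, TTCNNNGAA, which reads the same on both strands, and for a C/EBP element, TTGCNNAA on either strand (the other strand reads TTNNGCAA). The letters of the STAT palindrome were found in 1 of the 12 windows and in 8.30% of all 32851 RefSeq windows, and those of the C/EBP element in 1 of the 12 windows and in 10.8% of all windows. The windows below are shown because Socs3 and Il1r1 held the matches, because Saa1 is the readout, and because Il1rn followed Saa1 most closely among the regulators. Capitals mark the matched letters, and each line runs 5′ to 3′ on the strand of the gene. The Socs3 window lies on the minus strand at chr11:117969317-117969616, the Il1r1 window on the plus strand at chr1:40224830-40225129, the Saa1 window on the minus strand at chr7:46742931-46743230, and the Il1rn window on the plus strand at chr2:24336610-24336909.
Socs3: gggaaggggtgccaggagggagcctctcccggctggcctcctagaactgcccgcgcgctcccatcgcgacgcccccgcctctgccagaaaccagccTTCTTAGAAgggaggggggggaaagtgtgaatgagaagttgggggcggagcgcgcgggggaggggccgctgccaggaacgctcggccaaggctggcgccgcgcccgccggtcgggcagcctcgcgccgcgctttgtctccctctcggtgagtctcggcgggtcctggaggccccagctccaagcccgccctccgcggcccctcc
Il1r1: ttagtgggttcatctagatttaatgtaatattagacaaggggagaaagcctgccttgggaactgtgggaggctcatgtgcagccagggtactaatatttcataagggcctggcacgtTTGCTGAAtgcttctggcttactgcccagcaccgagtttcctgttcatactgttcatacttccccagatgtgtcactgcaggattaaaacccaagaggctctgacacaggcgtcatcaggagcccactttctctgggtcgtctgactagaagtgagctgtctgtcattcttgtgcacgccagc
Saa1: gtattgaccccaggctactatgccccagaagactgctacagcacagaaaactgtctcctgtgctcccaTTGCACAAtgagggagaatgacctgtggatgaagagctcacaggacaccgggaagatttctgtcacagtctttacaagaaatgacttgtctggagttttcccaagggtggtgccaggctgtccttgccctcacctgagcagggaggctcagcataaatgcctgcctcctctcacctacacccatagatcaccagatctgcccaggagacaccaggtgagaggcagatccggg
Il1rn: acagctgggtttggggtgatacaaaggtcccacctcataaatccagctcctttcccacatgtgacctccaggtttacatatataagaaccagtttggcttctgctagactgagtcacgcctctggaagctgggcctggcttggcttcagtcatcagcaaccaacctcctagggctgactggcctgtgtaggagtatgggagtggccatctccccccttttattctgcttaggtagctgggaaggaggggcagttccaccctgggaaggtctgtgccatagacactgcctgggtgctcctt
In Socs3 the letters TTCTTAGAA began 154 bases before the start. In Il1r1 the letters TTGCTGAA began 133 bases before the start of its upstream window, and in Saa1 the letters TTGCACAA began 182 bases before the start. None of the 3 Il1rn windows, of which the one shown is the most upstream, held either set of letters. These are matches of letters in short windows and were not tested for binding.

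The 12 libraries were alike at the level of the whole liver. The summed FPKM, a read level corrected for transcript length and library size, per mouse ran from 735200 to 820107, and the lowest Spearman correlation between any 2 of the 12 mice across genes was 0.9806. The read depth behind the FPKM values is unknown, so no counting interval could be given. Nothing in the sources says how mice were assigned to days of dissection or sequencing, so batches could not be examined. All 10 hepatocyte markers were expressed, with summed levels between 55946 and 78825 FPKM, and none was at 0. Of the 16821 genes, 10241 reached at least 1 FPKM in at least 6 mice and were tested, and 8 of the 10 regulators were among them. Osmr reached 1 FPKM in 0 mice and Il1rn in 5 mice. These 2 genes were therefore fitted together with all 16804 genes that were above 0 in some mouse.

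FPKM is a level per transcript length, so the regulators can be ranked against each other within these livers. Cebpb had the highest mean level over the 12 mice, 72.7 FPKM, followed by Il1rap at 53.5 FPKM, Stat3 at 29.9 FPKM, Il6st at 15.2 FPKM and Il1r1 at 13.0 FPKM. Il6ra averaged 8.60 FPKM, Socs3 4.98 FPKM, Cebpd 2.57 FPKM, Il1rn 1.19 FPKM and Osmr 0.411 FPKM. The order was kept in every mouse at 4 of its 9 steps, those from Il1rap to Stat3, from Stat3 to Il6st, from Il1r1 to Il6ra and from Il1rn to Osmr. The least settled neighbours were Cebpb and Il1rap, since Cebpb was higher in 8 of 12 mice only. The signal transducer gp130 was thus measured at a higher mean level than the IL-6 receptor itself, and the oncostatin M receptor was near the lower end of detection.

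The regulators differed widely in how much they varied from mouse to mouse. Among the genes tested, the median SD of log2(FPKM + 1) over 12 mice was 0.141. Socs3 had an SD of 0.52, larger than that of 97.9% of the genes tested, Cebpd had 0.45 (larger than 96.9%) and Cebpb had 0.43 (larger than 96.6%). The receptors and Stat3 were steadier than these, though each varied more than the median gene. Their SDs were 0.27 for Il6ra (larger than 88.5%), 0.21 for Il1r1 (80.3%), 0.19 for Stat3 (73.6%), 0.16 for Il1rap (62.1%) and 0.16 for Il6st (60.4%). Thus Socs3 and the C/EBP factors were the most variable of the 8 regulators that passed the filter, and Il6st and Il1rap the least. Il1rn, under the filter, spanned an 8.67-fold range from its lowest to its highest mouse.

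**Figure D1:**
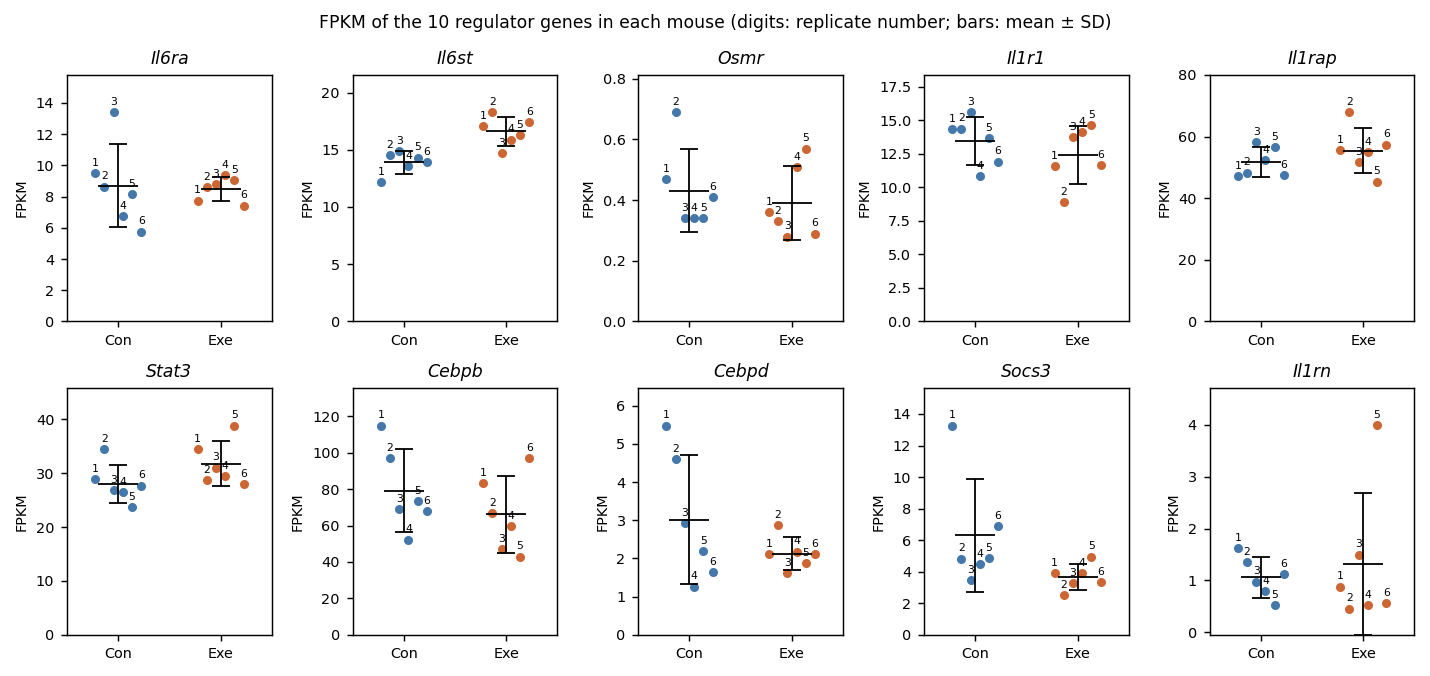
FPKM of each regulator in the 6 Con (blue) and 6 Exe (orange) mice, each point with its replicate number, with the mean (line) and SD (bar) of each group on a linear axis. For Il6st, 5 of the 6 Exe mice lie above every Con mouse, whereas for the other genes at most 3 Exe mice lie outside the Con range, and single high mice stand out for Socs3 (Con 1, 13.27 FPKM) and Il1rn (Exe 5, 3.99 FPKM).

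The first comparison asked whether chronic exercise changed the level of these regulators. Compared with Con group, no gene of the 10241 tested passed in Exe group (limma, Benjamini-Hochberg adjusted p of at most 0.05), that is 0% of all genes, and 0 of the 8 regulators tested passed. At an unadjusted p of at most 0.05, limma counted 636 genes (6.21%), and 2 of the 8 regulators, Il6st and Socs3, were among them. In bulk liver, fewer cells of a type and less RNA per cell cannot be told apart, which holds for each level given here.

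Il6st, the shared transducer of the IL-6 cytokine family, had the clearest separation of the groups. Its level ran from 12.15 to 14.87 FPKM in Con mice (median 14.1) and from 14.68 to 18.28 FPKM in Exe mice (median 16.7). Only Exe 3, at 14.68 FPKM, fell within the Con range. The means were 13.9 ± 0.968 FPKM in Con and 16.6 ± 1.26 FPKM in Exe (SD, n = 6 each), a 1.20-fold ratio of means. The log2 fold change was 0.24 (SE 0.06, 95% interval 0.11 to 0.38), with p = 0.00433 for this gene alone (exact two-sided permutation, 1 of 10 regulators so tested) and a Benjamini-Hochberg adjusted p of 0.657 in limma. Il6st ranked 27 of 10241 genes by its limma p, so the difference did not pass the correction over all genes.

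The other receptor of this family showed no such separation. Il6ra, which binds IL-6, ran from 5.76 to 13.41 FPKM in Con mice (median 8.41) and from 7.42 to 9.38 FPKM in Exe mice (median 8.71). All Exe mice lay inside the Con range, and the spread was 2.67 FPKM (SD) in Con against 0.766 FPKM in Exe. The log2 fold change was 0.01 (SE 0.14, limma adjusted p = 0.998), and its sign changed when any of 5 mice was left out. Osmr, the receptor subunit for oncostatin M, ran from 0.34 to 0.69 FPKM in Con and from 0.28 to 0.57 FPKM in Exe mice, with overlapping groups and a log2 fold change of -0.04 (SE 0.07, limma adjusted p = 0.956).

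The receptors of IL-1 overlapped between the groups as well. Il1r1, the signalling receptor, ran from 10.85 to 15.61 FPKM in Con (median 14.0) and from 8.90 to 14.67 FPKM in Exe (median 12.7). Its log2 fold change was -0.11 (SE 0.11, limma adjusted p = 0.932). Il1rap, the accessory chain that the receptor needs to signal, ran from 47.10 to 58.07 FPKM in Con (median 50.3) and from 45.35 to 67.90 FPKM in Exe (median 55.3). The highest Il1rap level was in Exe 2 and the lowest in Exe 5, so the Exe mice spanned the whole range. The log2 fold change of Il1rap was 0.10 (SE 0.09, limma adjusted p = 0.931), and it was 0.037 without Exe 2 and 0.151 without Exe 5. Without Exe 2 that of Il1r1 was -0.028, and with Saa1 as a covariate the values were -0.061 for Il1r1 and 0.048 for Il1rap.

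Among the transcription factors, Stat3 ran from 23.74 to 34.43 FPKM in Con (median 27.2) and from 27.93 to 38.87 FPKM in Exe (median 30.3). Exe 5 and Exe 1 lay above every Con mouse and the other Exe mice within the Con range, and the log2 fold change was 0.17 (SE 0.09, 95% interval -0.03 to 0.38, limma adjusted p = 0.848). Cebpb, a C/EBP factor active in the inflamed liver, ran from 52.32 to 115.01 FPKM in Con (median 71.4) and from 42.92 to 97.23 FPKM in Exe (median 63.2). Its log2 fold change was -0.27 (SE 0.21, limma adjusted p = 0.924). Cebpd, the C/EBP factor that is low at rest and rises in inflammation, ran from 1.26 to 5.48 FPKM in Con (median 2.55) and from 1.61 to 2.88 FPKM in Exe (median 2.11). The highest Cebpd levels were those of Con 1 and Con 2, and all Exe mice lay within the Con range. Its log2 fold change was -0.27 (SE 0.23, limma adjusted p = 0.929). Without Con 1, the log2 fold changes were -0.154 for Cebpb and -0.107 for Cebpd, and without Con 4 that of Cebpd was -0.411.

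Of the inhibitors, Socs3 was lower in Exe at an unadjusted p only. It ran from 3.47 to 13.27 FPKM in Con mice (median 4.83) and from 2.52 to 4.96 FPKM in Exe mice (median 3.62). Con 1 stood far above all other mice, and 3 Exe mice lay below every Con mouse. The means were 6.30 ± 3.59 FPKM in Con and 3.65 ± 0.821 FPKM in Exe (SD, n = 6 each). The log2 fold change was -0.55 (SE 0.23, 95% interval -1.05 to -0.06), with p = 0.0368 for this gene alone (exact two-sided permutation) and a Benjamini-Hochberg adjusted p of 0.793 in limma. Without Con 1 the log2 fold change was -0.34. Il1rn, the IL-1 receptor antagonist, ran from 0.52 to 1.62 FPKM in Con (median 1.05) and from 0.46 to 3.99 FPKM in Exe (median 0.725). The Exe mice included both the lowest Il1rn level, in Exe 2, and the highest, in Exe 5. Its log2 fold change was 0.04 (SE 0.27, limma adjusted p = 0.997), without Exe 5 it was -0.214, and with Saa1 as a covariate 0.221.

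**Figure D2:**
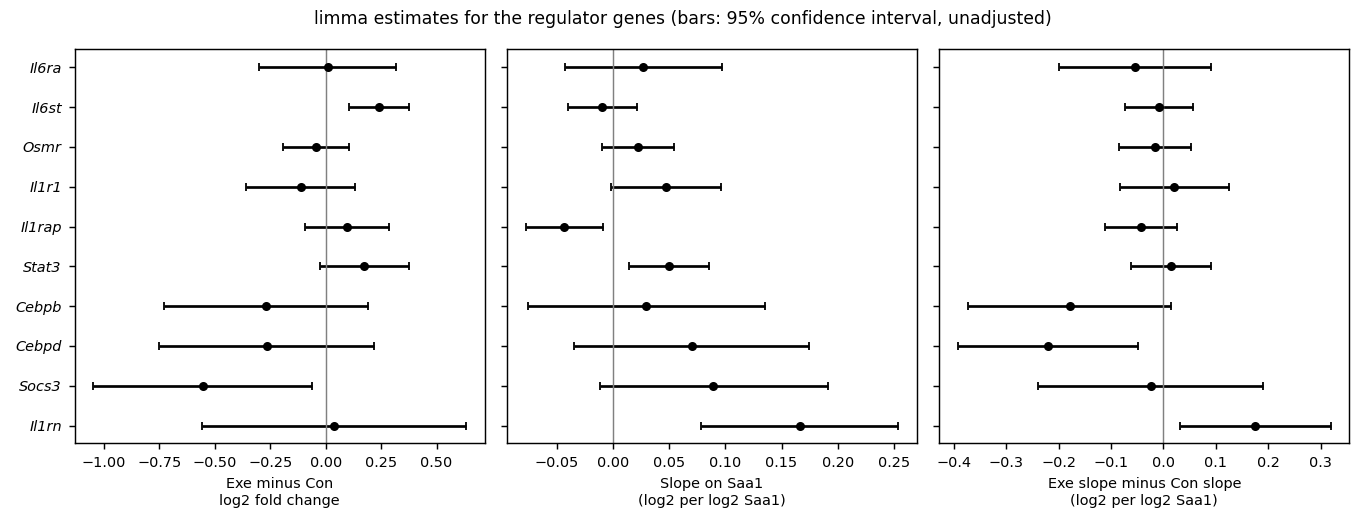
Estimates from limma with 95% intervals for the 10 regulators, on the log2(FPKM + 1) scale: Exe against Con, the slope on log2(Saa1 FPKM + 1) with the group as a term, and the difference of that slope between the groups. The intervals of Il6st and Socs3 in the first panel, of Stat3, Il1rap and Il1rn in the second, and of Cebpd and Il1rn in the third lie on 1 side of 0, and no gene among the 10 passed the correction over all genes.

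The second comparison asked which regulators followed the acute-phase readout across mice. Saa1 spanned a 62.3-fold range, from 148.52 FPKM in Exe 2 to 9259.82 FPKM in Con 1. In Con mice it was at 153.23 and 182.18 FPKM in Con 4 and Con 5 and at 4301.38 FPKM or above in the other 4. In Exe mice it was at 148.52 and 148.71 FPKM in Exe 2 and Exe 4, between 849.60 and 1436.52 FPKM in 3 mice and at 8993.98 FPKM in Exe 5. Both groups therefore held livers with low and with high Saa1, and the exact two-sided permutation p for Saa1 itself between the groups was 0.465 (log2 fold change -1.10).

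On Saa1 as the explanatory variable, with the group as a term, 44 of 10240 genes passed limma at an adjusted p of at most 0.05 (0.43%), 36 rising (0.352%) and 8 falling (0.0781%). None of the 8 regulators tested passed, and 2 of them, Stat3 and Il1rap, had an unadjusted p of at most 0.05, as did 1609 genes (15.7%). The count of 44 genes rested on few mice, since it was 13 without Con 1 and 71 without Con 6. In the same fit, 15 of 29 other positive acute-phase protein genes passed and rose with Saa1. These included Saa2, the closest paralog of Saa1 with which it may share reads (slope 1.26 on the log2 scale, limma adjusted p = 7.63e-11), and the orosomucoid genes Orm1 (slope 0.24, limma adjusted p = 4.52e-05) and Orm2 (slope 0.76, limma adjusted p = 4.52e-05). A slope of 1 means that the gene doubled with each doubling of Saa1.

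**Figure D3:**
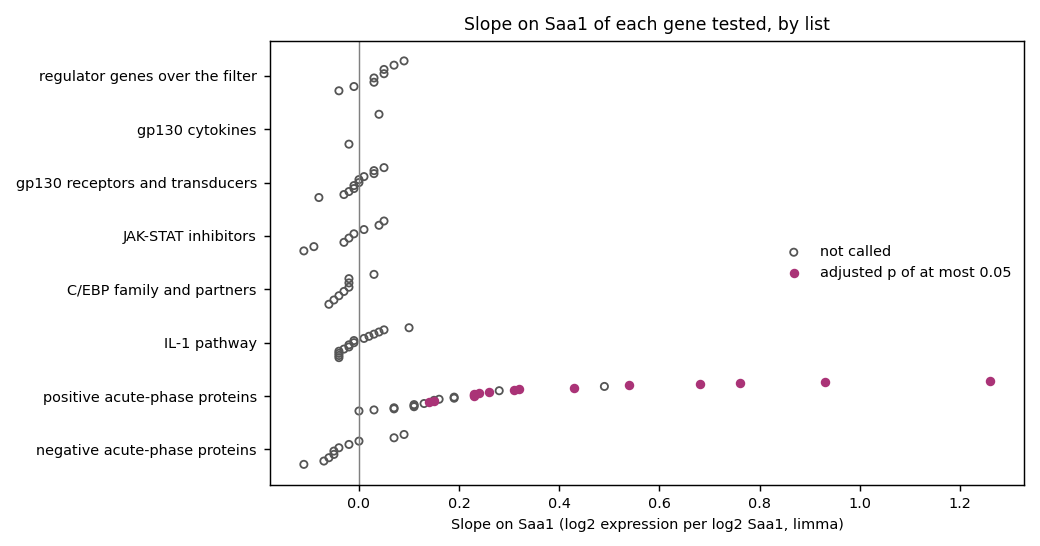
Slope of each gene on log2(Saa1 FPKM + 1) by gene list, on the log2(FPKM + 1) scale, 1 point per gene tested, filled where the gene passed at an adjusted p of at most 0.05. The 29 positive acute-phase protein genes have a median slope of 0.227 and 28 lie above 0, whereas the 8 regulators over the filter have a median of 0.038 and the lists of the pathway around them lie near 0.

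Il1rn followed Saa1 most closely among the regulators. The 4 mice with the highest Il1rn were Exe 5 (3.99 FPKM), Con 1 (1.62 FPKM), Exe 3 and Con 2 (1.35 FPKM), with Exe 3 between Con 1 and Con 2, and Exe 5, Con 1 and Con 2 also had the 3 highest Saa1 levels. Over 12 mice Pearson's r was 0.75 (permutation p = 0.00111, Benjamini-Hochberg adjusted p = 0.0819 over the genes tested and Il1rn) and Spearman's rho was 0.90 (permutation p = 0.000220, adjusted p = 0.0395 over the same genes). Over all genes, 42 passed by Pearson's r (0.410%) and 76 by Spearman's rho (0.742%) at an adjusted p of at most 0.05, of 10240 relations tested each, to which Il1rn was added as a gene under the filter. Within Con mice r was 0.88 (exact permutation p = 0.00694) and within Exe mice r was 0.88 (exact permutation p = 0.00972), whereas no gene passed after adjustment within a group of 6. Without the 2 mice farthest from the median Saa1, Exe 2 and Exe 4, r was 0.68 (permutation p = 0.0234). The slope was 0.17 (SE 0.04), and without Exe 5 it was 0.104. Its limma adjusted p was 0.144 over all 16803 genes fitted without the filter. That is a larger set than the one used for r and rho, whose correction left out the other genes under the filter. The level of Il1rn was low, at a mean of 1.19 FPKM, and the pseudocount of 1 compresses its fold changes.

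Markers of several cell types differed along with Il1rn and Saa1, some lists upwards and some downwards. The mice with the 4 highest Il1rn levels, named above, also had the 4 highest summed levels of the 11 Kupffer cell and macrophage markers, 520 FPKM in Exe 5, 474 FPKM in Con 1, 439 FPKM in Exe 3 and 573 FPKM in Con 2. The sums ran from 313 to 573 FPKM in Con and from 227 to 520 FPKM in Exe mice. All 11 markers had a slope above 0 on Saa1, 8 at an unadjusted p of at most 0.05 and 0 after adjustment in limma, and no marker of the list was at 0 in all mice. The summed level of 12 neutrophil markers ran from 13.7 to 36.4 FPKM in Con and from 10.6 to 57.1 FPKM in Exe mice, with Exe 3, Exe 5, Con 1 and Con 2 the 4 highest, and 3 of the 12 markers passed the filter. All 3 had a slope above 0 on Saa1 at an unadjusted p of at most 0.05, and 0 passed after adjustment in limma. Of the 8 stellate cell markers 7 had a slope above 0, 2 at an unadjusted p. Both bile duct markers tested had a slope above 0, 1 at an unadjusted p, and 0 of these 2 lists passed after adjustment. Exe 5 also had the highest summed pancreatic acinar, red blood cell, T and NK cell, and B and plasma cell markers of all mice. Most tested genes of these 4 lists did not rise with Saa1. Slopes were below 0 for 4 of 5 red blood cell markers, 2 of 2 B and plasma cell markers and the 1 acinar marker tested. The 1 T and NK cell marker tested had a slope above 0. Of the 10 hepatocyte markers, 8 had a slope below 0, 3 at an unadjusted p of at most 0.05 in limma. These 3 genes are also on the list of negative acute-phase protein genes. The 8 sinusoidal endothelial markers went against the Kupffer cell and macrophage markers. Their summed levels ran from 67.1 FPKM in Con 1 to 112 FPKM in Con 5 among Con mice. Among Exe mice they ran from 80.0 to 97.0 FPKM. Of these 8 markers 7 had a slope below 0 on Saa1, 6 at an unadjusted p of at most 0.05. Of all 10240 genes, 4053 had a slope above 0 and 6187 below 0. At an unadjusted p of at most 0.05 in limma, 595 of all genes rose and 1014 fell. The vascular receptor gene Kdr, named after its values were seen, fell with Saa1 (slope -0.09, limma adjusted p = 0.0415). This call rested on single mice, since 0 falling genes passed without Con 1, without Con 5 or without Exe 1. The part of the listed cell types in the Il1rn and Saa1 relation was not tested.

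Stat3 was higher and Il1rap lower where Saa1 was higher, each at an unadjusted p only, and for Stat3 in the limma slope only. For Stat3 the slope was 0.05 (SE 0.02, limma adjusted p = 0.169). Over 12 mice its r was 0.48 (permutation p = 0.113, adjusted p = 0.412) and its rho 0.34 (permutation p = 0.286, adjusted p = 0.611). Its r was 0.67 within Con (exact permutation p = 0.128) and 0.74 within Exe mice (exact permutation p = 0.101). The pooled r was thus lower than that within either group. For Il1rap the slope was -0.04 (SE 0.02, limma adjusted p = 0.212). Its r was -0.69 (permutation p = 0.0132, adjusted p = 0.180) and its rho -0.66 (permutation p = 0.0239, adjusted p = 0.219), and r was -0.52 within Con and -0.82 within Exe mice. Without Exe 2 and Exe 4, r was -0.61 (permutation p = 0.0678). Of all genes tested, 7.64% had an absolute r with Saa1 at least as large as that of Il1rap.

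For Il1r1, Socs3 and the remaining receptors the limma slope on Saa1 had an unadjusted p above 0.05. Il1r1 had a slope of 0.05 (SE 0.02, limma adjusted p = 0.335), r of 0.57 (permutation p = 0.0520, adjusted p = 0.308) and rho of 0.73 (permutation p = 0.00885, adjusted p = 0.149). Without Exe 2 the Il1r1 slope was 0.030. Socs3 had a slope of 0.09 (SE 0.05, limma adjusted p = 0.382) and r of 0.52 (permutation p = 0.0718, adjusted p = 0.347). Con 1, the mouse with the highest Saa1, was also the highest in Socs3, and without it the Socs3 slope was 0.042. Il6ra had r of 0.23 (permutation p = 0.494, adjusted p = 0.761), Osmr had r of 0.44 (permutation p = 0.149, adjusted p = 0.467) and Il6st had r of -0.33 (permutation p = 0.297, adjusted p = 0.618). The median absolute r with Saa1 over all genes tested was 0.32, so the value of Il6st was near this median in size and that of Il6ra below it.

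**Figure D4:**
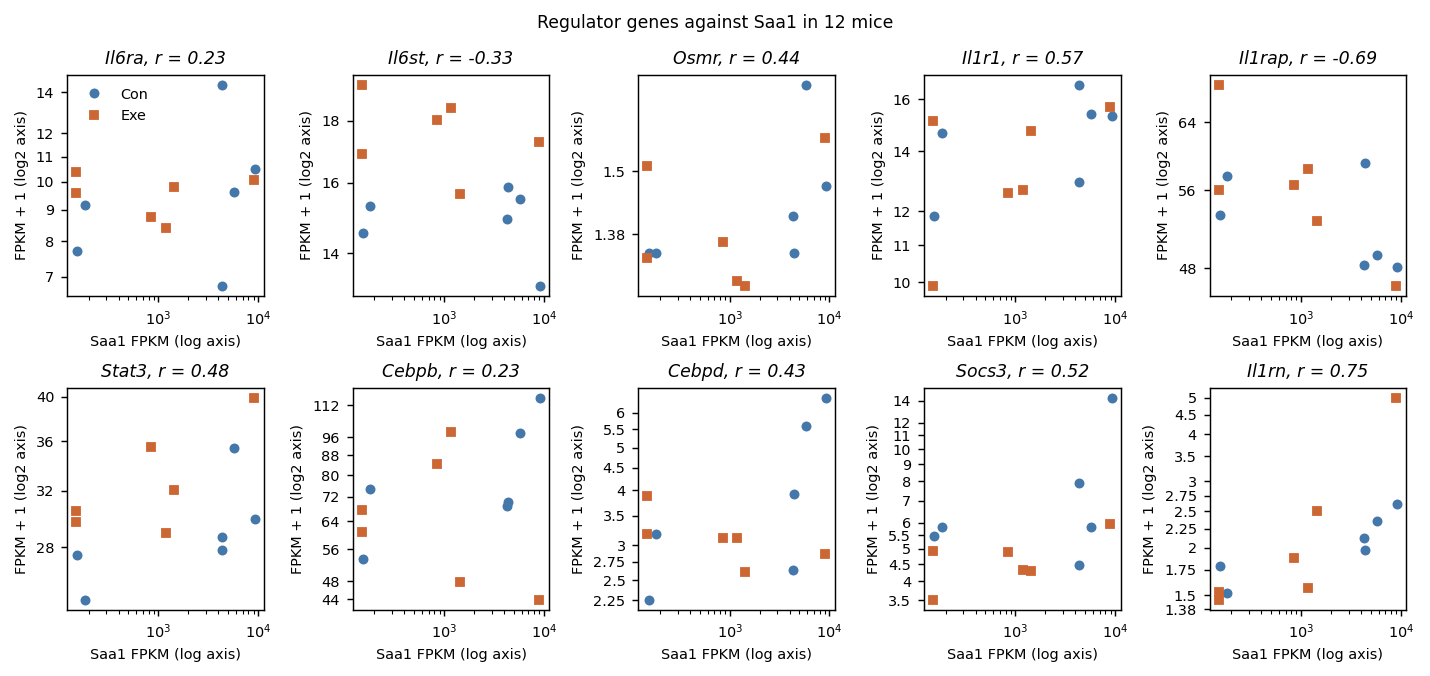
FPKM + 1 of each regulator (log2 axis) against Saa1 FPKM (log axis) in 6 Con (blue circles) and 6 Exe (orange squares) mice, with Pearson's r over 12 mice above each panel. Il1rn is higher at high Saa1 in both groups (r = 0.75) and Il1rap is lower (r = -0.69), whereas Cebpd has r of 0.71 in Con and -0.69 in Exe mice.

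For the C/EBP factors the sign of r with Saa1 was opposite in the 2 groups. Within Con mice Cebpd had r of 0.71 and rho of 0.94 with Saa1 (exact permutation p = 0.0167 for rho, adjusted p = 0.532). Within Exe mice its r was -0.69 and its rho -0.93 (exact permutation p = 0.0167 for rho, adjusted p = 0.475). Con 1 and Con 2, with the 2 highest Saa1 levels of their group, had 5.48 and 4.60 FPKM of Cebpd, whereas Exe 5, with the highest Saa1 of its group, had 1.87 FPKM. Cebpb had r of 0.69 within Con and -0.37 within Exe mice, and Exe 5 had the lowest Cebpb level of all mice, 42.92 FPKM. The pooled r values, 0.43 for Cebpd and 0.23 for Cebpb, combine these opposite signs.

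Whether the slopes differed between the groups was tested by the interaction of the group and Saa1. No gene of 10240 passed (0%), whereas 350 had an unadjusted p of at most 0.05 (3.42%), and of the 8 regulators tested only Cebpd was among these. The slope of Cebpd was lower in Exe than in Con by a difference of -0.22 (SE 0.08, 95% interval -0.39 to -0.05, limma unadjusted p = 0.0167, adjusted p = 1). For Cebpb the difference was -0.18 (SE 0.09, limma adjusted p = 1). For Il1rn, fitted without the filter, the slope was higher in Exe than in Con by a difference of 0.18 (SE 0.06, limma adjusted p = 0.999). Without Exe 5, these differences were -0.064 for Cebpb and 0.046 for Il1rn, whereas that of Cebpd was -0.256.

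The regulators were also compared with each other. Of their 45 pairs, 5 (11.1%) had an absolute Pearson's r of at least 0.7 over 12 mice, against 2.28% of all pairs of genes tested. The median absolute r was 0.32 over the 45 pairs and 0.24 over all pairs. These correlations are descriptions, since the genes share the same 12 libraries, and the 45 pairs include Osmr and Il1rn, which were under the filter.

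Cebpb and Cebpd, which form dimers on the same DNA elements, varied together (r = 0.73), closely in Con (r = 0.95) and less in Exe mice (r = 0.45). Il6st and Socs3, transducer and feedback inhibitor of the same pathway, ran in opposite directions (r = -0.78), with r of -0.90 in Con and -0.38 in Exe mice. Con 1 had both the lowest Il6st, 12.15 FPKM, and the highest Socs3, 13.27 FPKM, of all mice, and r without it was not computed. The pooled r also holds the opposite group differences of the 2 genes (log2 fold change 0.24 for Il6st and -0.55 for Socs3). Il1rap ran against both inhibitors, with r of -0.76 with Il1rn (-0.76 in Con and -0.86 in Exe) and -0.70 with Socs3 (-0.72 in Con and -0.89 in Exe). Stat3 and Il1rn varied together (r = 0.71, with 0.79 in Con and 0.87 in Exe). These 5 pairs kept their sign in both groups, as did 22 of the 45 pairs in all. The 5 pairs were picked by their pooled r over the same mice, so their shared sign is no separate evidence. No such share was taken over all pairs of genes, so the count of 22 has no background to be set against.

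**Figure D5:**
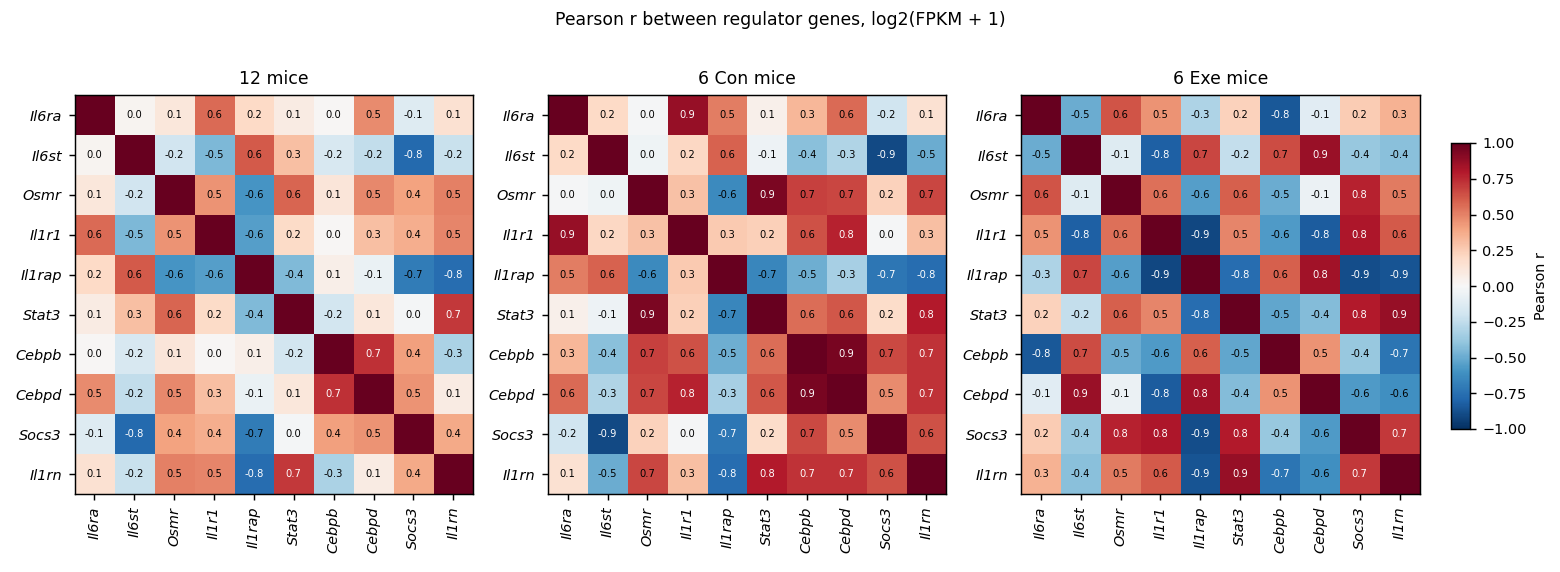
Pearson's r between each pair of regulators on the log2(FPKM + 1) scale, over 12 mice and within 6 Con and 6 Exe mice (red above 0, blue below 0). Cebpb and Cebpd show r = 0.95 in Con and 0.45 in Exe mice, and Il1rap is negative with Il1rn and Socs3 in both groups.

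The genes outside the list whose levels were most like those of each regulator were named by Pearson's r over 12 mice. They were picked for their high r from all genes tested, in the same mice in which r is given. No background was computed for the highest r that such a search gives among unrelated genes. The r values below, pooled or within a group, are therefore descriptions and no evidence of a shared role. For Cebpd the genes were Pfkfb2, a regulator of glycolysis (r = 0.91, with 0.99 in Con and 0.42 in Exe), and Tsc22d3, a leucine zipper gene induced by glucocorticoids (r = 0.91, with 0.93 in Con and 0.71 in Exe). For Cebpb they were Dio1, the thyroid hormone deiodinase (r = 0.89), and Aifm2 (r = 0.85). For Il6st they were Canx, the chaperone calnexin of the endoplasmic reticulum (r = 0.93), and Tmed10, a cargo receptor of the secretory pathway (r = 0.89).
For Stat3 they were Tceanc2 (r = 0.88) and Pgm3, an enzyme of hexosamine synthesis (r = 0.85). Both had an r of at least 0.81 within each group, in the same mice that were used to choose them. For Il1r1 they were Ifi207 (r = 0.93) and Cfap410 (r = 0.92), and for Il1rap they were the carboxylesterase gene Ces1c (r = 0.94) and Mief1 (r = 0.94). For Socs3 they were Gripap1 (r = 0.87) and Grina (r = 0.86), and for Il6ra they were Pitpnc1 (r = 0.89) and Susd6 (r = 0.85). The likeness to Il6ra and Socs3 was high in Con mice only. To Il6ra, Pitpnc1 had r of 0.97 in Con against 0.08 in Exe, and Susd6 0.98 against -0.44. To Socs3, Gripap1 had r of 0.92 in Con against 0.34 in Exe, and Grina 0.96 against 0.28.

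The rest of the pathway was read from lists of its genes. Among the ligands, Il6 was listed at 0 in 8 of 12 mice, among them all 6 Exe mice, and reached at most 0.14 FPKM, and Osm was listed at 0 in 7 mice. Of the 8 gp130 cytokine genes only Ctf1 (2.27 to 4.06 FPKM) and Clcf1 (0.57 to 1.66 FPKM) passed the filter, and neither passed limma on Saa1, with slopes of -0.02 and 0.04 and 0 at an unadjusted p of at most 0.05. Il1b ran from 1.45 to 6.64 FPKM and Il1a from 0.68 to 3.65 FPKM over the 12 mice, and Il18, a cytokine of the IL-1 family, from 8.42 to 12.32 FPKM. None of the 11 other receptors, kinases and transducers of the gp130 pathway that were tested passed on Saa1 in limma (median slope -0.001, 1 higher with Saa1 at an unadjusted p of at most 0.05), nor did any of the 8 other inhibitors of JAK-STAT signalling (median slope -0.017, 2 higher at an unadjusted p). The 8 C/EBP relatives and partners (median slope -0.026, 2 lower at an unadjusted p) and the 15 IL-1 pathway genes tested (median slope -0.015, 2 higher and 3 lower at an unadjusted p) gave 0 calls as well. The median slope over all genes tested was -0.007, with 595 of 10240 genes higher and 1014 lower at an unadjusted p.

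The products of the pathway were read in the same way. Of the 29 positive acute-phase protein genes, 28 had a slope above 0 and 26 had an unadjusted p of at most 0.05 in limma, with a median slope of 0.227. Of the 10 negative acute-phase protein genes, whose products fall in inflammation, 6 were lower with Saa1 and 2 higher at an unadjusted p, and 0 passed after adjustment in limma. Of these 6 genes, 3 are the hepatocyte markers counted above as lower with Saa1 at an unadjusted p. Over all 10240 genes, 4053 had a slope above 0, and 595 were higher and 1014 lower with Saa1 at an unadjusted p. Of 9 glucocorticoid-responsive genes, only the metallothionein gene Mt2, which is also on the list of positive acute-phase proteins, passed (slope 0.68, limma adjusted p = 0.0415). Between Exe and Con none of these lists held a gene that passed limma. At an unadjusted p of at most 0.05 the counts were 1 of 30 positive and 1 of 10 negative acute-phase protein genes, 2 of 9 glucocorticoid-responsive genes and 5 of 10 immediate early genes, against 636 of 10241 genes in all. The acute-phase protein genes so counted were higher in Exe. Those of the other lists were lower in Exe, and the gene Dusp1 was counted on both of them.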

How the data were processed

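Livers of 12 mice (6 Con, 6 Exe) were sequenced as paired-end RNA-seq on a DNBseq platform. Reads of low quality were discarded by the authors, who aligned the remainder to GRCm39 with HISAT and deposited FPKM values per gene with 2 decimals. The submitters' processing notes also name Bowtie2 and mm10, and the tool that computed FPKM is not given in the sources used here. Groups were taken from the sample labels. From the deposited FPKM, log2(FPKM + 1) was computed, and genes with at least 1 FPKM in at least 6 mice were tested with limma 3.58.1 in R 4.3.3 (lmFit and eBayes with trend, Benjamini-Hochberg over all genes tested), first for the group, then for log2(Saa1 FPKM + 1) with the group as a term, then for their interaction. Fold changes on this scale understate the change of low genes. The study's methods name DESeq, which needs read counts and was not used here.

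Single genes were tested by exact two-sided permutation over all 924 groupings (smallest possible p 0.00216). Correlations used 100000 two-sided permutations over 12 mice and all 720 orders within a group (Python 3.11.15, scipy 1.17.1). The scripts were tested on simulated data. Each mouse was taken as a replicate. The genes named were all 10 regulators and Saa1, the 2 genes most like each regulator over the filter by Pearson's r, and at most 3 called genes with the smallest p for Saa1 per pathway list, while cell type lists were read as sums and counts. The regulators and the gene lists were chosen with earlier results of these data known. Alternatives were a pseudocount of 0.1, other filters and scalings, Lcn2 in place of Saa1, no group term, a replicate block and leaving out each mouse. Promoter windows came from RefSeq on GRCm38.p6 and no coordinates were converted.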

Additional observations from a re-analysis of the deposited data

Results flagged for a closer look

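In 4 of 22 sets of 6 mice (each regulator and Saa1 in each group), 1 mouse lay far from the others by Dixon's ratio, the gap to its nearest neighbour divided by the range of the group and passed its 95% critical value. For values with a normal spread, chance gives this in about 1 in 20 groups. The ratios were taken on FPKM, where single high values weigh more than on the log2 scale of the other tests. They were not repeated on the log2 scale, so the count of 4 cannot be set against that rate. Saa1 in Exe mice was highest in Exe 5 (ratio 0.854), at 8993.98 FPKM. Il1rn in Exe mice was highest in the same mouse (ratio 0.705), at 3.99 FPKM. Socs3 in Con mice was highest in Con 1 (ratio 0.649), at 13.27 FPKM. Osmr in Con mice was highest in Con 2 (ratio 0.629), at 0.69 FPKM.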

How the results depend on the processing

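Of 628 values of the regulators under other settings, 604 kept both sign and call and 24 changed sign, and none gained or lost a call. Between Exe and Con, limma called 0 genes under every setting but 1, called without the filter on low values (898 at an unadjusted p of at most 0.05). The count of genes that followed Saa1, 44, became 15 without the filter, 83 with quantile normalization, 132 with Lcn2 in place of Saa1, 84 without the group term and 32 with a replicate block, and ran from 13 to 71 when a mouse was left out: 13 without Con 1, 24 without Con 4, 16 without Con 5, 71 without Con 6, 25 without Exe 1, 22 without Exe 2, 25 without Exe 3 and 22 without Exe 5. Slope differences ran from 0 to 3 calls when a mouse was left out (2 without Con 3, 3 without Con 6). The mouse numbers did not pair the groups: of 6 same-numbered pairs, with correlations of deviations from -0.478 to 0.165, 1 was over 0.1 and 1 was its mouse's best match.

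For Exe against Con, Il6ra was -0.004 with median-ratio scaling and ran from -0.087 to 0.131 when a mouse was left out, Osmr from -0.078 to 0.007 and Il1rn from -0.214 to 0.141, with -0.043 for Il1rn at a pseudocount of 0.1, -0.046 without Con 5 and -0.015 without Exe 3. The Saa1 slope of Cebpb was -0.025 with the replicate block and ran from -0.011 to 0.089. The slope difference was 0.000 for Il6st and -0.086 for Il1r1 with the replicate block, and ran from -0.025 to 0.008 for Il6st, -0.025 to 0.076 for Il1r1, -0.020 to 0.030 for Stat3, -0.070 to 0.062 for Socs3 and -0.070 to 0.010 for Osmr. The adjusted p of the Il1rn slope in limma ran from 0.0892 to 0.287 over its alternatives. The cause of these changes was not tested. Refits of Il1rn and Osmr without the filter were added after seeing the data. Read depth is unknown, which limits the genes near 1 FPKM most.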
